A study of Oryza sativa with 12 samples.

Results

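Leaf primordia of rice labelled as knockout for the auxin exporters OsPIN1c and OsPIN1d (ospin1c ospin1d) were compared with those of WT, the cultivar Nipponbare, by RNA sequencing. The comparison used 6 of the 12 libraries of the series, 3 per group, and the 19746 of 32552 listed identifiers that reached 1 FPKM (fragments scaled by gene length and library size) in at least 3 of the 6. The remaining 6 libraries come from ospid C1 and ospid C2, both labelled as knockout for OsPID, and served as a second reference for the level of single genes. Growth settings on the labels were the same for all plants, with days of 15 h (28 °C) and nights of 9 h (24 °C). The labels give no plant age, do not say whether a library came from 1 plant or a pool, and name no separate lines of ospin1c ospin1d, so effects of losing the exporters and of anything else carried by those plants cannot be told apart. They do not say either whether replicates are separate cultures or plants, so the p-values measure the spread between these libraries, which may be technical.

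PIN proteins are plasma membrane carriers that move auxin out of cells, and their position on the cell sets the direction of auxin flow. In shoots, local auxin maxima mark where leaf primordia start and where veins form. OsPID is a kinase of the PINOID type, a class known from Arabidopsis to phosphorylate PIN proteins. Primordia also hold meristematic, epidermal and vascular precursor cells, and in such bulk tissue fewer cells of a type and less RNA per cell cannot be told apart.

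The deposited tables do not pair their identifiers with gene names, and 1 of the 32552 identifiers was found in the RefSeq gene table of the assembly ASM3414082v1. The genes are therefore described by identifier, chromosome, level and position, with no name or function. OsPIN1c and OsPIN1d were not looked up, and neither the genotype nor the tissue label was checked against marker genes. Lists of auxin, leaf development, cell cycle, photosynthesis and stress genes had been written as name patterns and could not be applied. No sequence is shown for the same reason. Chromosomes and gene order were read from the identifiers themselves, in which rice annotation encodes the chromosome after Os and the order along it after g.

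The 6 libraries held between 15500840 and 16366255 reads, a number recovered from the steps between FPKM values. Correlations of log2(FPKM + 1) were 0.972 to 0.980 among WT libraries, 0.976 to 0.982 among ospin1c ospin1d libraries and 0.949 to 0.962 between the groups. On the first principal component, with 47.9% of the variance, WT lay at -36.1 to -27.7 and ospin1c ospin1d at 27.2, 27.5 and 41.1.

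Replicate 3 of ospin1c ospin1d stood apart from the other mutant libraries. In this group 34 loci starting with Os were under 0.1 FPKM in at least 1 library and at 5 FPKM or more in another, and in all 34 the high library was replicate 3. Their level there ran from 5.03 to 309 FPKM with a median of 11.0, and the highest value in replicates 1 and 2 was 2.02 FPKM. The highest of them, on chromosome 4, was at 309 FPKM in replicate 3 and at 0 in replicates 1 and 2. A locus of chromosome 11 was at 181 FPKM in replicate 3, 1.39 in replicate 2 and 0 in replicate 1, and a locus of chromosome 1 was at 125 FPKM in replicate 3 and listed at 0 in each of the other 11 libraries. In WT the same rule found 11 loci, of which 10 were high in replicate 1, and in ospid C1 and ospid C2 it found 5 and 7. Only 1 of the 34 loci passed the filter on low values and none was called, so they add no call of their own. The total counts and sizes of calls below are also given without this library, and the core genes are those called without each library in turn. Abundance classes, stretches and most other single genes are given from the full comparison alone.

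The number of genes that differed was asked of limma on log2(FPKM + 1), with a Benjamini-Hochberg adjusted p under 0.05 over all 19746 identifiers. In all, 772 genes (3.91% of those tested) passed. Of these, 500 (2.53%) were higher in ospin1c ospin1d and 272 (1.38%) lower. The lower group averaged under 1 FPKM for 126 of the rises and 54 of the falls. Such genes may have passed the filter through the higher group alone. Both groups averaged 5 FPKM or more for 230 rises and 173 falls. In all 772 the libraries of the groups did not overlap, a property shared by 26.2% of all tested genes. Over the 19746 genes the median log2 change was -0.0147.

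A log2 change of at least 1 was reached by 390 called genes (1.98% of those tested). Among the rises, 296 were of at least 1 on the log2 scale and 40 of at least 3. Among the falls, 94 were of at least 1 and 13 of at least 3. The median log2 change was 1.10 for called rises and -0.757 for called falls. Without ospin1c ospin1d replicate 3, the 146 called rises and 106 called falls had medians of 1.46 and -1.46. Of these, 123 rises and 81 falls were of at least 1, and 10 rises and 14 falls of at least 3. The filter stayed at 3 libraries, so a gene at 1 FPKM or more in the mutant alone could not enter this fit. The loss of large rises and the balance of directions are therefore partly fixed by the filter. Genes that rose stood at a median of 3.95 FPKM in WT and 13.4 in the mutant, and genes that fell at 24.6 and 11.9. Both kinds had shorter recovered lengths than the tested genes at large, with medians of 1139 and 1070 bases against 1461. These lengths are lower bounds, and whether they fall short equally in called and other genes was not tested. Of genes from 500 to 1000 bases long, 4.16% rose and 2.23% fell, and of those of 3000 bases or more 1.11% rose and 0.579% fell.

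**Figure D1:**
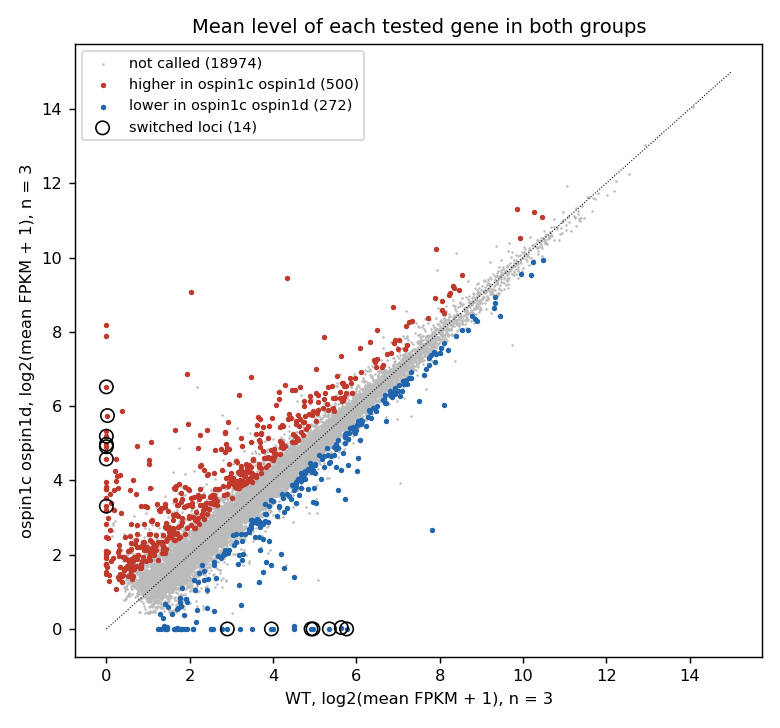
Mean level of each of the 19746 tested genes in WT (x axis) and in ospin1c ospin1d (y axis), both as log2(mean FPKM + 1) of 3 libraries. Red points are the 500 called rises, blue points the 272 called falls, grey points the other genes, open circles the 14 switched loci, and the dotted line marks equal levels; called genes of both directions are found at low and at high levels.

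The share of genes that fell differed between abundance classes. Below 2 FPKM on average over the 6 libraries, 71 of 2809 genes rose (2.53%) and 36 fell (1.28%). From 2 to 5 FPKM, 101 of 4296 genes rose (2.35%) and 29 fell (0.675%). From 5 to 20 FPKM, 173 of 6804 rose (2.54%) and 75 fell (1.10%). From 20 to 100 FPKM, 112 of 4418 rose (2.54%) and 89 fell (2.01%). At 100 FPKM or more, rises and falls were equal in number, with 43 of each among 1419 genes (3.03%).

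The count changed when single libraries were left out. Without ospin1c ospin1d replicate 3 it was 252 (146 up, 106 down), without replicate 1 it was 182 (111 up, 71 down) and without replicate 2 it was 207 (118 up, 89 down). Without WT replicates 2 and 3 it was 423 (296 up, 127 down) and 205 (168 up, 37 down), and without WT replicate 1 it was 739 (544 up, 195 down). With all 12 libraries in 1 fit it was 490 (281 up, 209 down). Rises outnumbered falls in each of these fits. With the filter kept at 3 libraries, leaving out a mutant library removes genes at 1 FPKM or more in the mutant alone. Leaving out a WT library likewise removes those in WT alone. Counts and the balance of directions in the fits with a library left out are therefore partly fixed by the filter. Replicate 3 was the highest mutant library in 251 of the 500 rises (50.2%) and the lowest in 99 of the 272 falls (36.4%); for 3 libraries that rank alike the share would be equal.

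A core of 104 genes was called in the full comparison and again without each of the 6 libraries in turn, 78 higher and 26 lower. A gene expressed in 1 group alone cannot belong to it, since it no longer reaches the filter when a library of that group is left out. The core rises had a median log2 change of 1.83 and the core falls of -1.32, and 43 rises and 16 falls stood at 5 FPKM or more in both groups. The genes of this last kind with the largest changes are given next by chromosome.

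The largest core rise was a gene of chromosome 5. Its WT libraries read 28.0, 21.3 and 8.09 FPKM and its mutant libraries 620, 821 and 640 FPKM (log2 change 5.26, SE 0.395, adjusted p = 0.0014, limma). Every mutant library lay far above every WT library, and the 6 ospid libraries, at 82.8 to 237 FPKM with a median of 144, lay between the groups without touching either. A gene of chromosome 3 went from 15.1, 6.81 and 8.62 FPKM up to 110, 82.9 and 132 FPKM (log2 change 3.33, SE 0.283, adjusted p = 0.00221). Its ospid libraries, at 26.1 to 85.1 FPKM, all lay above WT and reached the lowest mutant library.

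The most even of the large rises was on chromosome 12, in a gene at 9.06, 6.89 and 8.45 FPKM in WT and 79.6, 78.6 and 75.02 FPKM in ospin1c ospin1d (log2 change 3.12, SE 0.113, adjusted p = 2.44e-05), with ospid at 24.5 to 60.8 FPKM between them. A gene of chromosome 1 rose from 39.5, 33.4 and 36.2 FPKM to 223, 194 and 282 FPKM (log2 change 2.63, SE 0.144, adjusted p = 0.000255), and its ospid libraries spanned 53.6 to 188 FPKM. The next 4 core rises, on chromosomes 3, 11, 2 and 3, had log2 changes of 2.48, 2.19, 2.17 and 2.14. In each of these the ospid libraries were widely spread, for example from 3.60 to 26.4 FPKM for the gene of chromosome 2, against 3.53 to 7.84 in WT and 27.1 to 29.4 in ospin1c ospin1d.

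The largest core fall was a gene of chromosome 8. Its WT libraries read 216, 220 and 240 FPKM and its mutant libraries 4.05, 6.22 and 5.56 FPKM (log2 change -5.19, SE 0.141, adjusted p = 5.02e-06, limma). The ospid libraries, at 196 to 271 FPKM, covered the WT values, and the mutant libraries lay far below both. Next came a gene of chromosome 12, which fell from 62.1, 41.5 and 53.1 FPKM to 8.91, 8.89 and 13.0 FPKM (log2 change -2.24, SE 0.192, adjusted p = 0.00227). Its ospid libraries, at 64.5 to 98.0 FPKM, all lay above every WT library.

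A gene of chromosome 4 fell from 35.3, 25.9 and 33.2 FPKM to 9.92, 10.2 and 8.55 FPKM (log2 change -1.62, SE 0.139, adjusted p = 0.00228), and its ospid libraries, at 9.73 to 19.8 FPKM, were below WT as well. Another gene of chromosome 4 fell from 26.4, 27.7 and 29.2 FPKM to 12.4, 12.8 and 13.0 FPKM (log2 change -1.06, SE 0.0886, adjusted p = 0.00218), whereas ospid stood at 26.9 to 44.0 FPKM, within or above the WT range. On chromosome 9 a gene was lower at 48.1, 47.9 and 47.7 FPKM than at 93.3, 104 and 113 FPKM in WT (log2 change -1.09, SE 0.0924, adjusted p = 0.00221), with ospid between them at 52.3 to 79.6 FPKM. The core falls not described here, of chromosomes 4, 10 and 8, had ospid medians of 35.6, 16.1 and 26.2 FPKM, below every WT library. The first gene of chromosome 4 and that of chromosome 9 also had ospid medians below WT. For the largest fall the ospid median lay within the WT range. It lay above that range for the gene of chromosome 12 and the other gene of chromosome 4. In all of the core rises given above, the ospid median lay above every WT library. No test was run here between ospid and WT. The genes were chosen by their values in the same WT libraries, which tilts such a comparison toward the mutant's side.

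**Figure D2:**
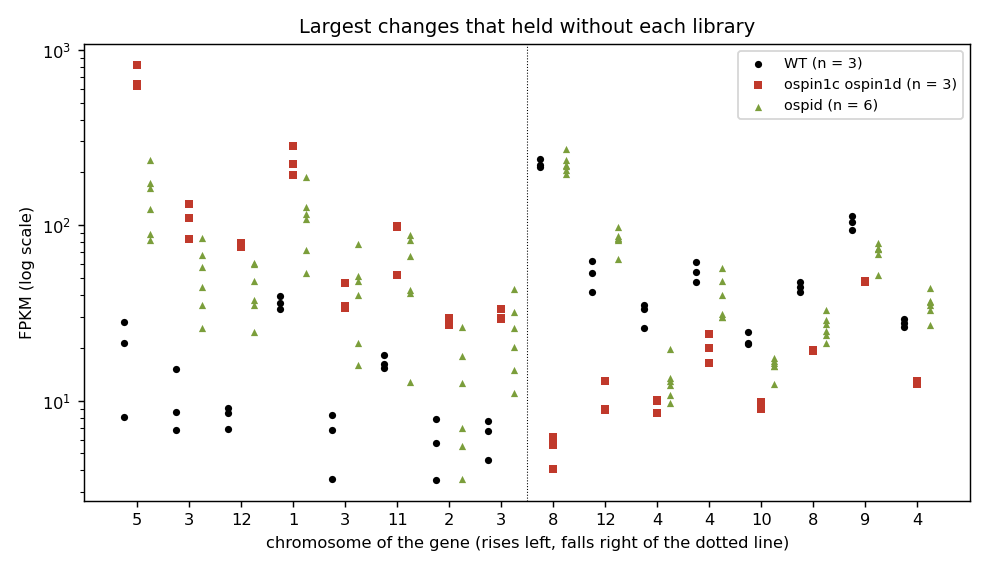
FPKM on a log scale in every library for the 8 rises and 8 falls with the largest log2 change among core genes at 5 FPKM or more in both groups, ordered by size within each direction and labelled by chromosome. Each point is 1 library of WT (black), ospin1c ospin1d (red) or the ospid lines (green); WT and ospin1c ospin1d do not overlap for any of the 16 genes.

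Of genes starting with Os at 100 FPKM or more on average over the 6 libraries, 41 rose, with a median log2 change of 0.83, and 43 fell, with a median of -0.55. Over all identifiers at this level, 43 of 1419 rose and 43 fell (3.03% each), against 2.53% and 1.38% of all tested genes. The ospid libraries averaged above WT for most of these rises and below WT for most of these falls, with no test run. These genes too were chosen by values in the same WT libraries. Most of the calls in both directions were lost without ospin1c ospin1d replicate 3, a fit with fewer libraries. The genes described are examples. A log2 change of at least 1 was reached by 12 of these rises and 4 of these falls, among them the genes of chromosomes 5, 1 and 8 given above. A further gene of chromosome 1 was at 302, 181 and 233 FPKM in WT and 766, 1101 and 1749 FPKM in ospin1c ospin1d (log2 change 2.28, SE 0.308, adjusted p = 0.0116; 1.97 and 0.0212 without replicate 3). The mutant libraries differed among themselves here, replicate 3 being the highest, and the ospid libraries ran from 299 to 938 FPKM. A gene of chromosome 6 rose from 141, 110 and 100 FPKM to 349, 357 and 509 FPKM (log2 change 1.77, SE 0.182, adjusted p = 0.00445; 1.60 and 0.00942 without replicate 3), with every ospid library, at 118 to 188 FPKM, below the mutant ones.

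Among abundant genes of chromosome 11, 1 fell from 732, 721 and 634 FPKM in WT to 333, 437 and 263 FPKM. The log2 change was -1.04 (SE 0.177, adjusted p = 0.0256, limma), and -0.861 without replicate 3 (adjusted p = 0.0497). The ospid libraries stood at 681 to 809 FPKM for this gene, above all mutant libraries. On chromosome 6 a gene fell from 191, 202 and 201 FPKM to 110, 110 and 123 FPKM (log2 change -0.793, SE 0.0808, adjusted p = 0.00425), and here ospid stood at 161 to 203 FPKM. On chromosome 7 a gene fell in ospin1c ospin1d from 560, 760 and 569 FPKM to 434, 371 and 386 FPKM (log2 change -0.653, SE 0.134, adjusted p = 0.0457; the call was lost without replicate 3, with an adjusted p of 0.149), and its ospid libraries were lower still, at 83.1 to 194 FPKM.

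Beside these graded changes stood loci that were on in 1 group and off in the other. Switched loci were defined as identifiers starting with Os under 0.1 FPKM in all 3 libraries of 1 group and at 5 FPKM or more in all 3 of the other. There were 14 of 28962: 7 on in ospin1c ospin1d and off in WT (0.0242%), and 7 the reverse (0.0242%). The rule fixes their difference between WT and ospin1c ospin1d, so those values are a description. With a floor of 2 FPKM in the high group there would be 14 loci in each direction, and with a floor of 10 FPKM 6 in each. They lay on 8 chromosomes at scattered positions, except for a nearby pair on chromosome 8, both off in the mutant. An identifier not ending in 00, a form used for loci added later to the annotation, was found for 5 of the 7 loci on in the mutant and 2 of the 7 off in it. Among all 18716 tested identifiers starting with Os, 1220 had such an ending.

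The ospid libraries, which the rule did not use, gave an independent reading of each locus. Of the 7 loci off in ospin1c ospin1d, 6 were at 5 FPKM or more in all 6 ospid libraries, and the remaining 1, on chromosome 1, was listed at 0 in all 6. Of the 7 loci on in ospin1c ospin1d, 3 were listed at 0 in all 6 ospid libraries and 4 stayed under 0.5 FPKM in each. Of the 14 switched loci, 13 therefore had ospid libraries in the state of WT and 1 in the state of the mutant.

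Os03g0223301, on chromosome 3, had the largest called rise among identifiers starting with Os, and 2 features starting with EPlOSAG rose by more. It was at 95.2, 32.5 and 144 FPKM in ospin1c ospin1d, from 2458, 830 and 3867 recovered reads, and listed at 0 in the 3 WT and 6 ospid libraries. The mutant libraries differed widely among themselves, but none came near 0. It passed the filter on low values through the mutant libraries alone, and its difference from WT is therefore given with no test.

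The other loci on in the mutant were on chromosomes 6, 8, 5, 1, 9 and 4. That of chromosome 6 was at 39.3, 57.4 and 61.2 FPKM, that of chromosome 8 at 39.4, 37.7 and 29.3, and that of chromosome 5 at 24.4, 27.1 and 35.5. Those of chromosomes 1 and 9 were at 24.0, 22.0 and 45.1 and at 23.5, 13.4 and 31.6 FPKM. That of chromosome 4 was at 7.83, 9.13 and 9.71 FPKM. It was the 166th tested gene there, beside the 167th, the core fall from 26.4, 27.7 and 29.2 to 12.4, 12.8 and 13.0 FPKM. Whether these neighbours share reads was not tested. Replicate 3 was the highest mutant library for 6 of the 7 loci on in the mutant, though replicates 1 and 2 also passed 5 FPKM for each.

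Os01g0348900 had the second largest called rise among identifiers starting with Os but was not a switched locus, being read in every library. It stood at 7.02, 1.43 and 0.804 FPKM in WT and at 52.2, 167 and 1401 FPKM in ospin1c ospin1d, replicate 3 being the highest. The log2 change was 6.15 (SE 1.14, adjusted p = 0.0333, limma), and 4.85 without replicate 3 (adjusted p = 0.0332). In the ospid libraries it was at 0.658 to 1.60 FPKM, below every mutant library. The call against WT was lost without WT replicates 2 or 3 (adjusted p = 0.0905 and 0.121) and without ospin1c ospin1d replicate 2 (adjusted p = 0.0989).

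Os08g0330800 and Os08g0332100, both on chromosome 8, had the largest falls among identifiers starting with Os, and passed the filter through WT alone, so no test is given. Os08g0330800 was at 55.1, 53.7 and 51.6 FPKM in WT, from 758 to 787 recovered reads, and it was listed at 0 in each of the 3 mutant libraries. The C1 line stood at 45.5 ± 6.32 FPKM and the C2 line at 50.5 ± 8.13 FPKM (SD, n = 3 each), and their 6 libraries, at 39.2 to 59.7 FPKM, lay on both sides of the WT values. Os08g0332100 was at 61.2, 34.6 and 50.7 FPKM in WT and at 0, 0 and 0.0787 FPKM in the mutant, the last from 2 reads. Its levels were 52.3 ± 7.66 FPKM in the C1 line and 53.3 ± 0.964 FPKM in the C2 line (SD, n = 3 each), with all 6 libraries within the WT range. In the order of tested genes these loci were the 525th and 528th of 1259 on the chromosome.

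The other loci off in the mutant were listed at 0 in all 3 of its libraries. In WT that of chromosome 11 was at 45.4, 33.8 and 40.4 FPKM, that of chromosome 6 at 20.7, 12.8 and 10.3 FPKM, and those of chromosome 4 at 30.3, 26.7 and 33.4 and at 5.49, 6.16 and 7.82 FPKM. The locus of chromosome 1, off in the mutant and in all ospid libraries, was at 33.1, 20.03 and 34.3 FPKM in WT, and so was read in WT alone.

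**Figure D3:**
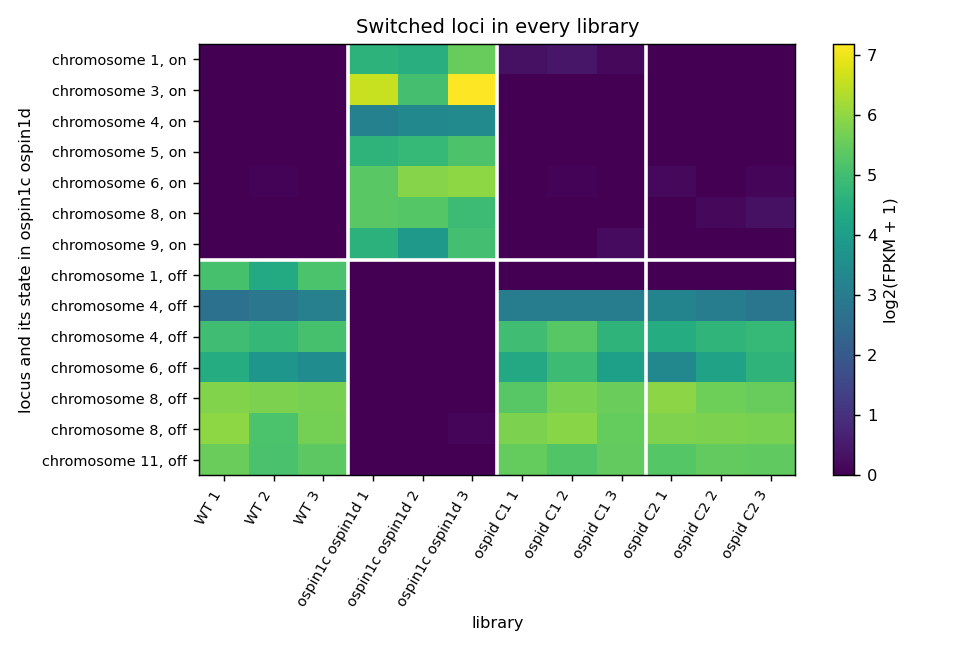
Level of the 14 switched loci (rows, named by chromosome and by their state in ospin1c ospin1d) in all 12 libraries (columns), with colour giving log2(FPKM + 1). The upper 7 loci are bright in the 3 ospin1c ospin1d libraries alone, and of the lower 7, which are dark in ospin1c ospin1d, 6 are bright in the WT and ospid libraries and 1 in WT alone.

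Changed genes also lay near each other. Of the 475 rises starting with Os, 59 (12.4%) had a neighbouring tested gene that also rose, against 4.99% of all 18716 tested Os identifiers. Of the 255 falls, 43 (16.9%) had a neighbour that fell, against 2.64%. Neighbours may share reads where genes overlap or are duplicated, and the sources used here do not say how such reads or strand were handled. By chromosome, falls ranged from 0.636% of tested genes on chromosome 2 to 2.54% (32 of 1259) on chromosome 8, and rises from 1.91% on chromosome 2 to 4.17% (39 of 935) on chromosome 11. These shares and the stretches below are descriptions, with no test of their own.

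The fullest stretch of falls was on chromosome 8 and did not hold its switched loci. Of 50 consecutive tested genes, the 666th to the 715th of the chromosome, 13 fell, 1 rose and 36 were not called. The genes that were not called had a median log2 change of 0.06. The falls began at the 678th gene, and the 685th to the 689th, 5 genes in a row, all fell. Among the 13, the 679th, 683rd, 685th, 686th, 699th, 702nd and 703rd were under 1 FPKM in every mutant library. They passed the filter on low values through WT alone, so their calls are a description. Log2 changes of the 13 ran from -1.15 to -2.40. The 688th gene fell from 10.9, 10.7 and 13.7 FPKM to 1.24, 1.37 and 1.63 FPKM (log2 change -2.40, SE 0.139, adjusted p = 0.000347). The 678th fell from 16.6, 12.3 and 14.6 FPKM to 2.93, 2.17 and 1.88 FPKM (adjusted p = 0.00133). The last, the 715th, was the most abundant, at 47.4, 44.2 and 41.6 FPKM in WT and 19.3, 19.4 and 19.5 FPKM in the mutant (adjusted p = 0.00145).

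Of the 13 genes, 4 were listed at 0 in all 3 ospin1c ospin1d libraries, each at 1.30 to 4.59 FPKM in WT. For 12 of the 13, all 6 ospid libraries lay above every mutant library. The exception was the 689th gene, at 6.53, 11.2 and 6.50 FPKM in WT, 1.66, 1.40 and 0.799 in ospin1c ospin1d and 0.143 to 2.09 in ospid, where the mutants overlapped. For 8 of the 13 the ospid median lay within or above the WT range.

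**Figure D4:**
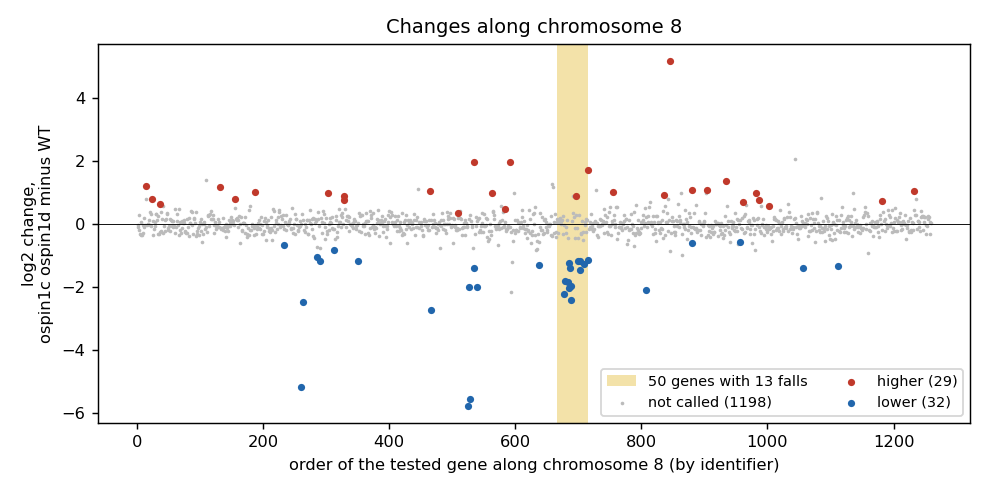
Log2 change between ospin1c ospin1d and WT (y axis) of the 1259 tested genes of chromosome 8, in the order of their identifiers (x axis), with called rises in red (29), called falls in blue (32) and other genes in grey. The shaded band marks the 50 genes with 13 falls; the lowest points, to its left, include the pair of loci off in the mutant, and the highest point, to its right, is the locus on in it.

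**Figure D5:**
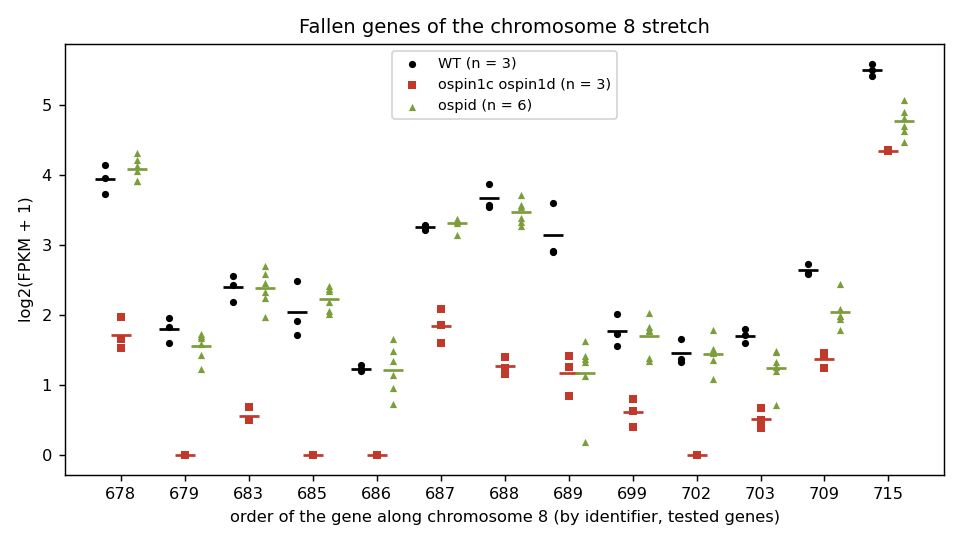
Level as log2(FPKM + 1) of the 13 fallen genes of the chromosome 8 stretch, labelled by their order among tested genes, in WT (black, 3 libraries), ospin1c ospin1d (red, 3 libraries) and the ospid lines (green, 6 libraries); horizontal bars are means of the log2 values. For 4 genes the mutant sits at 0, and for 12 of the 13 all ospid points lie above the mutant points.

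Stretches with fewer falls were found on chromosomes 4 and 11. On chromosome 4, 7 of 50 tested genes fell and 1 rose. The last fall, the 297th tested gene, went from 296, 263 and 259 FPKM to 62.2, 106 and 25.4 FPKM. Its log2 change was -2.28 (SE 0.447, adjusted p = 0.0397, limma), and -1.73 without replicate 3 (adjusted p = 0.0223). Of these 7, 3 were listed at 0 in all mutant libraries, each at 1.43 to 3.05 FPKM in WT, and so passed the filter through WT alone. For all 7 the 6 ospid libraries lay above every mutant library. On chromosome 11, 6 of 50 tested genes fell and 4 rose. The falls lay between the 902nd and the 909th tested gene and included the switched locus of that chromosome. Beside it, the 908th gene fell from 27.6, 16.3 and 21.4 FPKM to 1.78, 1.72 and 1.37 FPKM (log2 change -3.09, SE 0.191, adjusted p = 0.000471), with ospid at 19.5 to 27.5 FPKM. The 907th was listed at 0 in the mutant, at 4.77, 4.46 and 5.33 FPKM in WT and at 5.61 to 8.74 in ospid. The 902nd, 903rd, 905th and 907th were under 1 FPKM in every mutant library and passed the filter through WT alone. All 6 genes had ospid libraries above every mutant library, and the ospid median was within or above the WT range for each.

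Rises were less concentrated. The fullest stretches held 6 rises in 50 tested genes, on chromosomes 4, 7 and 12. Identifiers starting with EPlOSAG were called about as often as the others, with 24 of 1029 higher (2.33%) and 17 lower (1.65%).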

How the data were processed

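RNA sequencing of leaf primordia gave 12 libraries in 4 groups of 3, with groups and replicate numbers taken from the sample titles. The authors deposited 1 table per library with an FPKM value per identifier, per the file headers. Tools listed in the submitters' processing notes, without their roles, are HTSeq 0.6.0, HISAT2 2.1.0 and Bowtie2 2.2.3, with IRGSP-1.0 as the build; strand and the treatment of shared reads are not given in the sources used here.

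Library totals and gene lengths were recovered from the steps between FPKM values: at the totals used, all identifiers had a length that gave whole reads within 0.002 reads, and the recovered reads summed to 99.96% to 99.99% of the totals. Lengths and reads are lower bounds. For a gene of 1 kb, 1 read was worth 0.0609 to 0.0657 FPKM.

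Genes that reached 1 FPKM in 3 or more of the 6 libraries were tested with limma 3.58.1 in R 4.3.3 on log2(FPKM + 1), with a mean-dependent prior, a mean per group and no covariate, at a Benjamini-Hochberg adjusted p under 0.05; the method was tested on simulated data. Fold changes are on that scale and so are too small for low genes. A fit of all 12 libraries gave the difference from the ospid lines. The test for deposited counts did not apply.

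With no names to apply, the identifiers named are the 2 largest rises and 2 largest falls by log2 change among called identifiers starting with Os whose groups did not overlap and whose higher group had a mean of at least 5 FPKM. The comparison, the filter and the lists were chosen with earlier results of these data known; stretches, loci split within a group and core genes were chosen after seeing values. Alternatives are listed in the closing section.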

Additional observations from a re-analysis of the deposited data

How the results depend on the processing

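The count of 772 changed genes (500 up, 272 down) moved by more than 1.5 times in several settings. It was 490 (281 up) with all 12 libraries in the fit, 436 (277 up, 159 down) without a filter, and 390 (296 up, 94 down) at a log2 change of at least 1, which lowers counts by construction. With 1 library left out at a time it ranged from 182 to 739 genes, 111 to 544 up and 37 to 195 down. Leaving out both WT replicate 1 and ospin1c ospin1d replicate 3, chosen after seeing the data, gave 218 (174 up, 44 down). Fewer samples enter these fits, and genes expressed in 1 group alone miss the filter when a library of that group is left out. For the 12 libraries and the missing filter the cause was not tested. Median-ratio scaling (790), quantile normalization (778), a pseudocount of 0.1 (721), a filter at 5 FPKM (684), Os identifiers alone (999) and voom on the recovered reads (1008) stayed within 1.5 times, with 736 and 717 of the 772 genes called under median-ratio and quantile scaling. For Os identifiers alone the like counts are the 475 rises and 255 falls of the full comparison, against 640 and 359 in that setting. The replicate block gave 606 genes (434 up, 172 down), and its falls alone moved by more than 1.5 times. Over all tested genes the correlation of same-numbered deviations was weak, at -0.0417, 0.0228 and 0.0307. Whether libraries of the same number share a batch was not tested. Of 105 results for the 4 named identifiers under alternatives, 99 kept direction and side of the threshold, 6 lost the threshold and 0 reversed. The choice of large changes favours this. Os03g0223301, Os08g0330800 and Os08g0332100 passed the filter through 1 group alone, so their results here are no support. Where a library of that group was left out, they missed the filter and were not counted. All 6 losses were Os01g0348900 against WT. They included the replicate block (adjusted p = 0.0722, limma), no filter (0.0894) and voom (0.125). For this identifier against WT the adjusted p was 0.0333 as reported and 0.00459 to 0.125 over all alternatives. Gene lists could not be recomputed, since they could not be applied.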

Other observations

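For the 34 loci high in replicate 3 of ospin1c ospin1d alone, the other mutant libraries also differed: replicate 2 was above replicate 1 for 16 and below it for 4. Of the 34, 23 stayed under 0.5 FPKM in all other 11 libraries and 8 were listed at 0 in all 11, while 10 reached 20 FPKM or more in replicate 3.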
